A study of Mus musculus with 24 samples.

Results

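Fatty acid oxidation breaks long carbon chains down to acetyl-CoA, and the genes described here encode its enzymes. The 36 members were taken by symbol and by role in the pathway from the table of 24532 genes, with earlier results of these data known, and every member was found. They comprise 14 genes of the mitochondrial spiral, 9 of the peroxisomal route, 4 of carnitine-dependent entry, 4 long-chain acyl-CoA synthetases, 4 acyl-CoA thioesterases and the ketone body enzyme gene Bdh1. Their transcripts were compared between LKO mice, which lack Crif1 in the liver, and control (Ctrl) mice.

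As background, a fatty acid is first activated to its CoA ester by an acyl-CoA synthetase, and a thioesterase can split that ester again. Long-chain esters cross into mitochondria as acylcarnitines, made by CPT1 on the outer membrane and turned back into CoA esters by CPT2 on the inner membrane. There each turn of 4 steps shortens the chain, and electrons leave through the electron transfer flavoprotein. Peroxisomes shorten very long and branched chains by parallel enzymes, whose first oxidation passes electrons to oxygen, and hand the shortened products on as carnitine esters. In the liver, many of these genes are known targets of the fatty acid-activated receptor PPARα.

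The mice were of the C57BL/6 strain, fed chow and 8 weeks old. LKO mice were Alb-Cre;Crif1flox/flox, in which the albumin promoter drives Cre recombinase in hepatocytes, and Ctrl mice were Crif1flox/flox without Cre, so that an effect of Cre itself cannot be told apart from loss of Crif1. CRIF1 is a mitoribosomal protein needed for making the subunits of oxidative phosphorylation that mitochondrial DNA encodes. RNA was sequenced from liver, inguinal white adipose tissue (iWAT), gastrocnemius muscle (GM) and hypothalamus, with 3 libraries of each genotype per tissue and 24 in all. The labels do not say which tissues came from the same mouse or name the sex, so the p-values measure the spread between these libraries.

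Values are FPKM, a fragment count divided by transcript length and by the mapped fragments of the library, and differences are LKO minus Ctrl on the log2(FPKM + 1) scale, which understates changes of low genes. A gene was tested in a tissue if it reached 1 FPKM in at least 3 of the 6 libraries, and was called at an adjusted p under 0.05 (limma, Benjamini-Hochberg over all tested genes). A second criterion took a difference of at least 1.5-fold with an unadjusted p under 0.05. The depth inferred from the deposited coverage was 4.45 to 8.09 gigabases per library. In liver the median of all 10956 tested genes lay 0.33 above 0, so the liver tests were also run after median-ratio scaling, which centred that median at -0.01. In the other tissues the median lay between -0.03 and -0.01.

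The targeted gene, Gadd45gip1 (the symbol of Crif1), was measured first. In liver it stood at 14.6, 12.5 and 13.6 FPKM in the Ctrl libraries and at 5.40, 2.002 and 2.51 FPKM in the LKO libraries. The groups did not overlap, LKO 1 kept the most transcript, and the difference was -1.84 ± 0.27 (SE, adjusted p = 0.00357), or -2.16 (adjusted p = 0.00517) after scaling. In iWAT, GM and hypothalamus the difference lay between -0.22 and 0.02 and was not called. Liver libraries also differed in cell type markers. The summed level of 3 Kupffer cell markers ran from 53.7 to 55.7 FPKM in Ctrl and from 101 to 161 FPKM in LKO, and that of 6 macrophage and monocyte markers from 66.4 to 72.7 against 170 to 251 FPKM. The sum of 5 epithelial markers, nearly all of it Krt8 and Krt18, with Krt14 at 0 in every liver library and Krt5 in all but LKO 3, ran from 192 to 284 against 668 to 783 FPKM. The 6 hepatocyte markers, mostly Alb, summed to 54943.2 to 58417.2 FPKM in Ctrl and 47345.5 to 70029.5 FPKM in LKO, with Apoa1 at 7105 to 7145 against 2942 to 6164 FPKM and Ahsg at 4740.0 to 5620.2 against 7617 to 8897 FPKM. In such bulk samples fewer cells of a type and less RNA per cell cannot be told apart, and the part of these cell types in the liver results was not tested.

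In Ctrl mice the tissues used different forms of the same steps. The mitochondrial genes were highest on average in iWAT for 10 of 14, in liver for 3 and in GM for 1, whereas 8 of the 9 peroxisomal genes were highest in liver. The summed mitochondrial FPKM was 1.595 times the summed peroxisomal FPKM in liver, 2.47 times in hypothalamus, 7.50 times in iWAT and 13.3 times in GM, each as a mean over 3 Ctrl libraries. Cpt1a, the liver form of CPT1, averaged 64.2 FPKM in liver, 14.3 in iWAT, 8.82 in hypothalamus and 2.31 in GM. Cpt1b, the muscle form, averaged 121 FPKM in GM, 7.71 in iWAT, 2.36 in hypothalamus and 1.80 in liver, but 91.1% of its 100-base transcript windows are shared with an overlapping gene model, so its values are uncertain in every tissue. Among the synthetases, Acsl1, the main form in oxidative and fat-storing tissues, led in iWAT at 502 FPKM, and Acsl3, a form found on lipid droplets and the endoplasmic reticulum, led in hypothalamus at 54.1 FPKM. These levels are descriptions and were not tested.

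**Figure D1:**
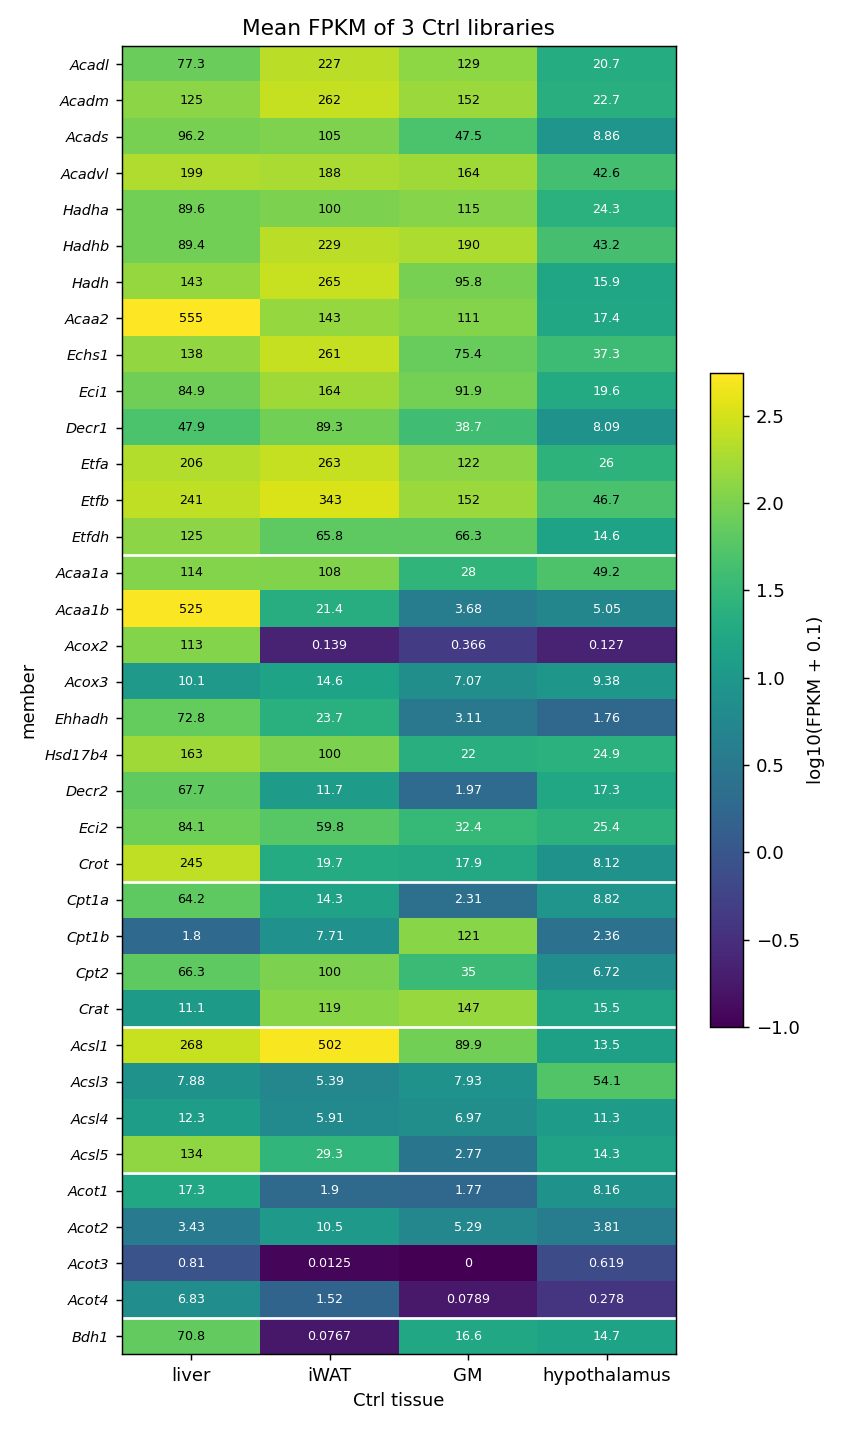
Mean FPKM of the 3 Ctrl libraries for each of the 36 members (rows, in role groups set off by white lines) in the 4 tissues (columns), with the colour on a log10(FPKM + 0.1) scale. Cpt1a runs from 64.2 FPKM in liver to 2.31 in GM and Cpt1b the other way, from 1.80 to 121 FPKM.

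The thioesterase genes are neighbours on 1 chromosome. Acot2 (mitochondrial), Acot1 (cytosolic), Acot4 and Acot3 (both peroxisomal) lie in that order on the plus strand of mouse chromosome 12, with annotated starts at 83987861, 84009502, 84038379 and 84052144. These neighbours were all higher in LKO liver, though Acot3 passed the filter only through its LKO libraries. For that reason the promoter windows below are shown, from RefSeq on GRCm38.p6 (the mm10 assembly). Each covers 280 bases, in small letters up to the annotated start and in capitals for the 30 bases from the start on, and in Acot4 capitals also mark a CACGTG. They are chr12:83987611-83987890 for Acot2, chr12:84009252-84009531 for Acot1, chr12:84038129-84038408 for Acot4 and chr12:84051894-84052173 for Acot3.
Acot2: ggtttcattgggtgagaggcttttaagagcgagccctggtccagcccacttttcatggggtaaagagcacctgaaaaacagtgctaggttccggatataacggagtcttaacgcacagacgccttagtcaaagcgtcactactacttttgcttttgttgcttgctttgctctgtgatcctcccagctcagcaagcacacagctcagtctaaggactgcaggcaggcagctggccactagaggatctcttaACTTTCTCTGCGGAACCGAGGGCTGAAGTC
Acot1: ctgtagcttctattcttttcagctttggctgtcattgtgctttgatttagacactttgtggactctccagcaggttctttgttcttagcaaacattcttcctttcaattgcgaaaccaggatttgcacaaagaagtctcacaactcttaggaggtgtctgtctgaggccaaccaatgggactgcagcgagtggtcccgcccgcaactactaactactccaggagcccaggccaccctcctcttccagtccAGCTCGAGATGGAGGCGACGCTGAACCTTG
Acot4: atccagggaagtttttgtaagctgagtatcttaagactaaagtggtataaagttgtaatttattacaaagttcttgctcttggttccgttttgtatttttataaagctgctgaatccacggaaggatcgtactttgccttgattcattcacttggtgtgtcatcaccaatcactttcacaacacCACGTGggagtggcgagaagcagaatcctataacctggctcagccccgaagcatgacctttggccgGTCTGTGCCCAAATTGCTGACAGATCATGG
Acot3: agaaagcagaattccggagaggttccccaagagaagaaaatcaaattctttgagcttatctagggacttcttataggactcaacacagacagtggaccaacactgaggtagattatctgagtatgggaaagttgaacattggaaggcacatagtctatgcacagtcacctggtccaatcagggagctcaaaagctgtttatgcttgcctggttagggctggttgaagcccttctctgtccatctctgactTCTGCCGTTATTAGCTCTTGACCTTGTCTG
The longest run of identical bases between any of these promoters was 10, in windows of 300 bases. Windows were given for 31 of the 36 members, as 35 windows in all, with none for Acaa2, Decr1, Hsd17b4, Cpt1b and Crat. Searched on both strands, a PPAR response element pattern of 2 copies of AGGNCA 1 base apart was in 0 of these 35 windows and in 0.381% of all 32851 promoter windows. TGATGNAA, a pattern bound by ATF4 with CEBP partners, was in 1 of the 35 (Echs1) and 3.97% of all. CACGTG, an E-box, was in 1 of the 35 (Acot4) and 7.15% of all. A match is a description of letters in these windows.

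Acot1, Acot2 and Acot4 rose in LKO liver on both scales, and Acot3 was tested only because it was high there. Acot2 stood at 4.61, 2.90 and 2.79 FPKM in Ctrl and at 16.4, 61.2 and 97.8 FPKM in LKO. No libraries overlapped, the LKO libraries differed widely among themselves, and LKO 1 was the lowest of them. On deposited FPKM, the summed Kupffer cell markers stood at 101, 123 and 161 in LKO 1, 2 and 3. Macrophage and monocyte markers stood at 170, 186 and 251. Both had the same order of libraries as Acot2, but so had the median-ratio scaling factors, at 1.00, 1.16 and 1.31. Marker sums were not scaled, and the part of these cells in the order of Acot2 was not tested. The difference was 3.45 ± 0.58 (SE, adjusted p = 0.00535) on deposited values and 3.09 (adjusted p = 0.00781) after scaling. With ordinary instead of moderated variances the adjusted p of Acot2 was 0.0511. Acot1 stood at 23.6, 14.96 and 13.4 FPKM in Ctrl and at 51.5, 60.5 and 49.2 FPKM in LKO. Its LKO libraries lay close together and far above Ctrl, with a difference of 1.61 ± 0.21 (SE, adjusted p = 0.00224), or 1.23 (adjusted p = 0.00941) after scaling. Acot4 went from 7.42, 7.72 and 5.35 FPKM in Ctrl to 15.5, 15.1 and 14.8 FPKM in LKO. Its difference was 1.06 ± 0.14 (SE, adjusted p = 0.00274), or 0.70 (adjusted p = 0.0202) after scaling. Acot3, the lowest of the 4, stood at 0.605, 1.32 and 0.506 FPKM in Ctrl and at 3.66, 4.26 and 2.99 FPKM in LKO. The groups were apart by 1.37 ± 0.19 (SE, adjusted p = 0.00296), or by 1.13 (adjusted p = 0.0124) after scaling, but Acot3 reached 1 FPKM in 1 Ctrl library and so passed the filter through its LKO libraries, which bound it to differ. After scaling, Acot3 lost its call without Ctrl 1 (adjusted p = 0.0506) and Acot4 lost it without Ctrl 1, Ctrl 3 or LKO 2, while Acot1 and Acot2 kept theirs with any liver library left out. Acot1 and Acot2 share sequence, with 21.9% and 17.1% of their 100-base transcript windows found in another gene, so reads may have been split between them.

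**Figure D2:**
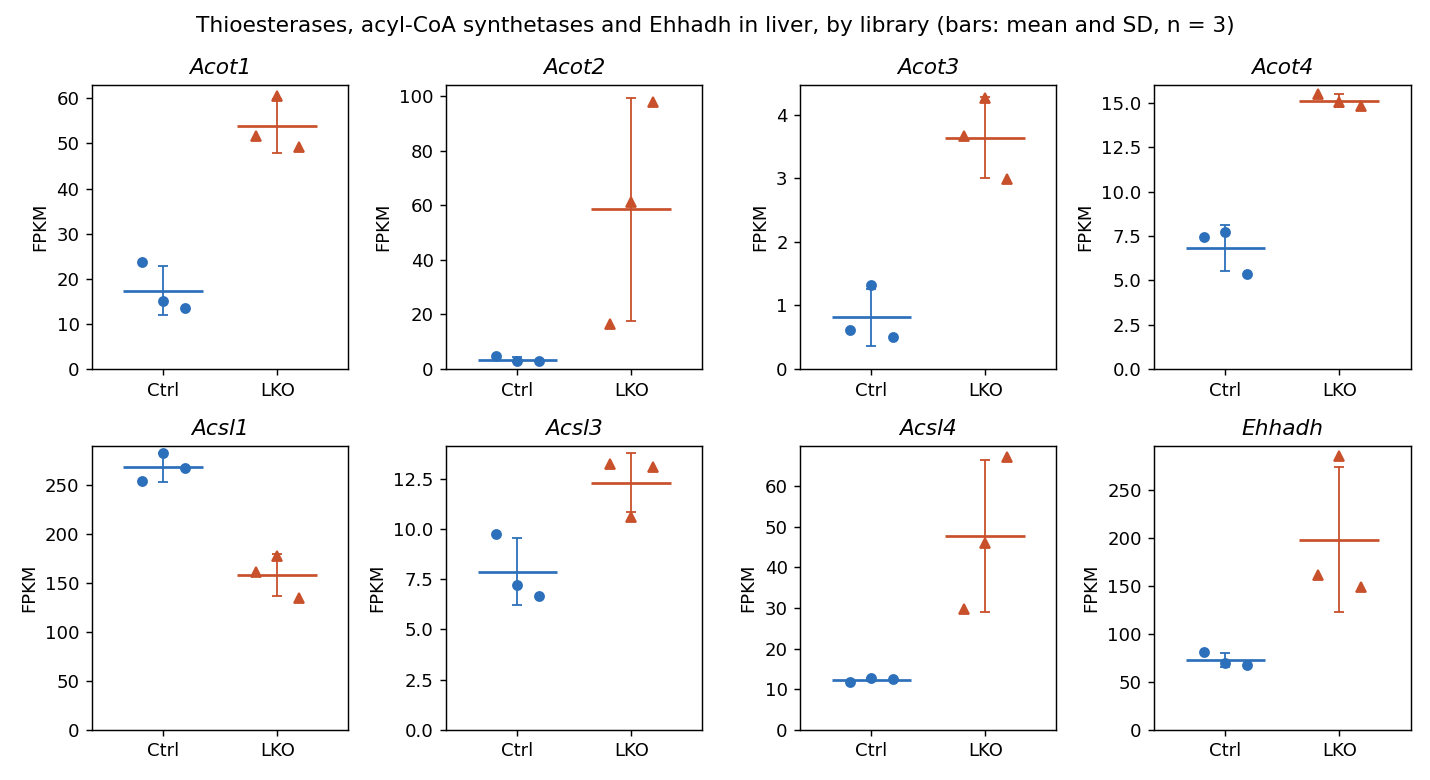
FPKM of the 4 thioesterases, 3 synthetases and Ehhadh in each of the 3 Ctrl (circles) and 3 LKO (triangles) liver libraries, with horizontal bars at the mean and vertical bars of 1 SD on axes that start at 0. The groups are apart in all 8 genes, as in 61.1% of all tested liver genes, with Acot2 spread from 16.4 to 97.8 FPKM in LKO and Acsl1 lower in LKO.

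The acyl-CoA synthetases moved in opposite directions in liver. Acsl1 stood at 254, 283 and 268 FPKM in Ctrl and at 162, 178 and 135 FPKM in LKO. Every LKO library was below every Ctrl library, and the difference was -0.77 ± 0.13 (SE, adjusted p = 0.00555) on deposited values and -1.16 (adjusted p = 0.0066) after scaling. Acsl4, which prefers arachidonic acid, stood at 11.8, 12.7 and 12.5 FPKM in Ctrl and at 29.8, 46.1 and 67.2 FPKM in LKO. Its Ctrl libraries were nearly equal, and LKO 1 was again the library nearest to Ctrl. Its LKO libraries stood in the order of the macrophage sums on deposited FPKM, which is also that of the scaling factors. The difference was 1.79 ± 0.26 (SE, adjusted p = 0.00354), or 1.41 (adjusted p = 0.00389) after scaling. Acsl1 and Acsl4 kept their calls on both scales with any liver library left out. Acsl3 stood at 9.77, 7.23 and 6.65 FPKM in Ctrl and at 13.2, 10.6 and 13.1 FPKM in LKO. It was higher on deposited values, with the groups apart, by 0.59 ± 0.16 (SE, adjusted p = 0.026) and not called after scaling, at 0.23 (adjusted p = 0.322). Acsl5, found on mitochondria and the endoplasmic reticulum, differed by 0.33 (adjusted p = 0.204) on deposited values and -0.07 after scaling. As a share of the summed FPKM of the 4 synthetases, which no scaling of a library can change, Acsl1 averaged 63.6% ± 4.34 (SD, n = 3) in Ctrl and 40.8% ± 4.26 in LKO, while Acsl4 averaged 2.93% ± 0.181 and 12.7% ± 6.09. The summed thioesterase FPKM was 0.067 ± 0.015 (SD, n = 3) of the summed synthetase FPKM in Ctrl liver and 0.346 ± 0.132 in LKO liver.

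In the mitochondrial spiral the answer depended on the scale. On deposited values 5 of 14 genes were higher and none lower, and after scaling 0 were higher and 2 lower, with a median difference of 0.13 that became -0.27. Of all tested liver genes 38.3% were called higher and 5.49% lower on deposited values, and 17% higher and 15.2% lower after scaling. Acadm, the medium-chain acyl-CoA dehydrogenase, stood at 142, 120 and 114 FPKM in Ctrl and at 191, 220 and 219 FPKM in LKO. Its groups stayed apart on both scales, but the difference of 0.74 ± 0.12 (SE, adjusted p = 0.00535) became 0.35 (adjusted p = 0.0561) after scaling. Hadha and Hadhb encode the α and β subunits of the trifunctional protein, which carries out the later steps on long chains. Hadha went from 99.3, 87.2 and 82.3 FPKM in Ctrl to 113, 139 and 154 FPKM in LKO. Hadhb went from 97.3, 87.0 and 84.0 FPKM to 127, 149 and 148 FPKM, but 52.8% of its 100-base transcript windows are shared with other gene models, so its values here and in iWAT are uncertain. Both were apart from Ctrl on either scale, with differences of 0.58 (adjusted p = 0.0188) and 0.65 (adjusted p = 0.00599) that became 0.19 (adjusted p = 0.17) and 0.26 (adjusted p = 0.0853) after scaling.

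The Hadha and Hadhb genes lie head to head on chromosome 5, with 272 bases between their annotated starts, and their values moved side by side. The window chr5:30155003-30155282 (GRCm38.p6, plus strand) is shown because it holds most of that shared stretch, in capitals, followed by the first bases of Hadhb in small letters.
Hadhb: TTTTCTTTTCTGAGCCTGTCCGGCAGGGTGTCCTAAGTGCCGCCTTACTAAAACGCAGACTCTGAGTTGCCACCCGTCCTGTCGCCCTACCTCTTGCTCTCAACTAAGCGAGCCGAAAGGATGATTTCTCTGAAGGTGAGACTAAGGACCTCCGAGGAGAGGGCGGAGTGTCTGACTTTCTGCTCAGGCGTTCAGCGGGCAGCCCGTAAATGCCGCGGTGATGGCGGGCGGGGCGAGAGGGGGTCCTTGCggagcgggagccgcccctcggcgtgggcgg
Decr1, a reductase for unsaturated chains, stood at 54.7, 44.7 and 44.3 FPKM in Ctrl and at 63.7, 77.4 and 77.8 FPKM in LKO. It was called on deposited values, at 0.60 ± 0.13 (SE, adjusted p = 0.0134), and not after scaling, where the groups overlapped, at 0.21 (adjusted p = 0.164). Acadl, the long-chain acyl-CoA dehydrogenase, was likewise called on deposited values at 0.57 (adjusted p = 0.00825) and not after scaling at 0.18 (adjusted p = 0.236). Calls in the other direction were made only after scaling. Etfdh, which passes electrons from the flavoprotein to ubiquinone, stood at 133, 123 and 120 FPKM in Ctrl and at 113, 111 and 93.5 FPKM in LKO. Its groups did not overlap, and the difference was -0.24 ± 0.11 (SE, adjusted p = 0.113) on deposited values and -0.64 (adjusted p = 0.0305) after scaling, where the call was lost without any of the Ctrl libraries or without LKO 2 (adjusted p up to 0.0961). Acads, the short-chain acyl-CoA dehydrogenase, differed by -0.01 on deposited values and by -0.40 (adjusted p = 0.024) after scaling. Its scaled call was lost without Ctrl 1, Ctrl 2, Ctrl 3 or LKO 2 in turn. Acadvl, the very-long-chain acyl-CoA dehydrogenase that opens the spiral, stood at 208, 198 and 190 FPKM in Ctrl and at 190, 229 and 235 FPKM in LKO, and its difference turned from 0.13 (adjusted p = 0.381) to -0.27 (adjusted p = 0.0703) after scaling. The remaining 6 genes, Hadh, Acaa2, Echs1, Eci1, Etfa and Etfb (65.2% of windows shared), were called on neither scale, and 5 of them, all but Acaa2, changed from positive to negative differences with scaling.

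In the peroxisomal route 1 of 9 genes rose on both scales, as did 17% of all tested genes. Ehhadh, the bifunctional enzyme that carries out the middle steps on straight chains, stood at 80.7, 70.1 and 67.5 FPKM in Ctrl and at 161, 286 and 149 FPKM in LKO. All LKO libraries were above Ctrl, with LKO 2 far above the others, and the difference was 1.38 ± 0.24 (SE, adjusted p = 0.00625) on deposited values and 0.98 (adjusted p = 0.0322) after scaling. After scaling it lost its call without any of the Ctrl libraries or without LKO 2. Crot, which makes medium-chain acylcarnitines for export from peroxisomes, stood at 271, 235 and 228 FPKM in Ctrl and at 377, 341 and 354 FPKM in LKO. These groups were apart on deposited values, at 0.55 ± 0.12 (SE, adjusted p = 0.0113), and overlapped after scaling, at 0.15 (adjusted p = 0.471). Hsd17b4, the second bifunctional enzyme, which also handles branched chains, differed by 0.11 (adjusted p = 0.435) and by -0.28 (adjusted p = 0.0546) after scaling. The branched-chain oxidases Acox2 and Acox3 and the reductase Decr2 were not called on deposited values and were lower after scaling, by -0.40 (adjusted p = 0.0476), -0.53 (adjusted p = 0.0251) and -0.58 (adjusted p = 0.0273). With a library left out, the scaled call of Acox2 was kept only without LKO 1. That of Decr2 was lost without Ctrl 1, Ctrl 2, Ctrl 3 or LKO 2 in turn, and that of Acox3 without Ctrl 2, Ctrl 3 or LKO 2. The thiolases Acaa1a and Acaa1b (21.6% and 22.6% of windows shared) and the isomerase Eci2 were called on neither scale. Over the 9 genes the median difference was -0.01, and -0.40 after scaling. The ratio of summed mitochondrial to summed peroxisomal FPKM, which is free of library scaling, was 1.595 ± 0.059 (SD, n = 3) in Ctrl and 1.52 ± 0.122 in LKO liver, and the libraries of the groups overlapped in it.

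The carnitine entry genes passed the threshold in LKO liver only on the deposited scale, where 3 of 4 were higher, against 38.3% of all tested genes. Cpt1a stood at 58.3, 64.5 and 69.9 FPKM in Ctrl and at 85.9, 92.6 and 81.3 FPKM in LKO. The groups did not overlap in FPKM and did overlap after scaling, where the difference of 0.43 ± 0.11 (SE, adjusted p = 0.0218) became 0.03 (adjusted p = 0.876). Cpt2 was higher by 0.35 (adjusted p = 0.0383), which became -0.05 (adjusted p = 0.77). Crat, carnitine acetyltransferase, which buffers acetyl-CoA as acetylcarnitine, stood at 13.7, 10.6 and 8.84 FPKM in Ctrl and at 25.2, 24.2 and 17.1 FPKM in LKO. Its difference was 0.94 ± 0.20 (SE, adjusted p = 0.0113) and kept its direction at 0.57 (adjusted p = 0.118) without a call after scaling. Cpt1b was low in liver and ran from 1.19 to 2.34 FPKM in Ctrl and from 0.408 to 4.17 FPKM in LKO. Bdh1, which reduces acetoacetate to β-hydroxybutyrate, differed by 0.14 (adjusted p = 0.449) and -0.25 (adjusted p = 0.38).

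In total 17 of the 36 members were called in liver on deposited values, 16 higher and 1 lower, where 43.8% of all tested genes were called, 38.3% higher and 5.49% lower. After scaling 12 were called, 6 higher and 6 lower, against 32.2% of all genes, 17% higher and 15.2% lower. On both scales 7 were called, Ehhadh, Acsl4 and Acot1 to Acot4 higher and Acsl1 lower, against 22.4% of all genes, 17% higher and 5.48% lower. Each of these counts includes Acot3, which passed the filter only through LKO liver. The count of 17 was 10 with ordinary variances, and that of 12 ran from 5 to 24 with a library left out. On each scale the members' share was near that of all genes. The median difference over the members was 0.14 and became -0.25 after scaling, and 12 members changed sign between the scales. By role, the median was 0.46 for synthetases, 0.39 for carnitine entry, 0.13 for the mitochondrial and -0.01 for the peroxisomal genes, and 0.08, -0.01, -0.27 and -0.40 after scaling. The calls of Cpt1a and Cpt2 on deposited values were also lost without Ctrl 1, Ctrl 2, Ctrl 3 or LKO 2 in turn, and those of Hadha, Decr1, Crot and Acsl3 without Ctrl 2 or Ctrl 3.

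**Figure D3:**
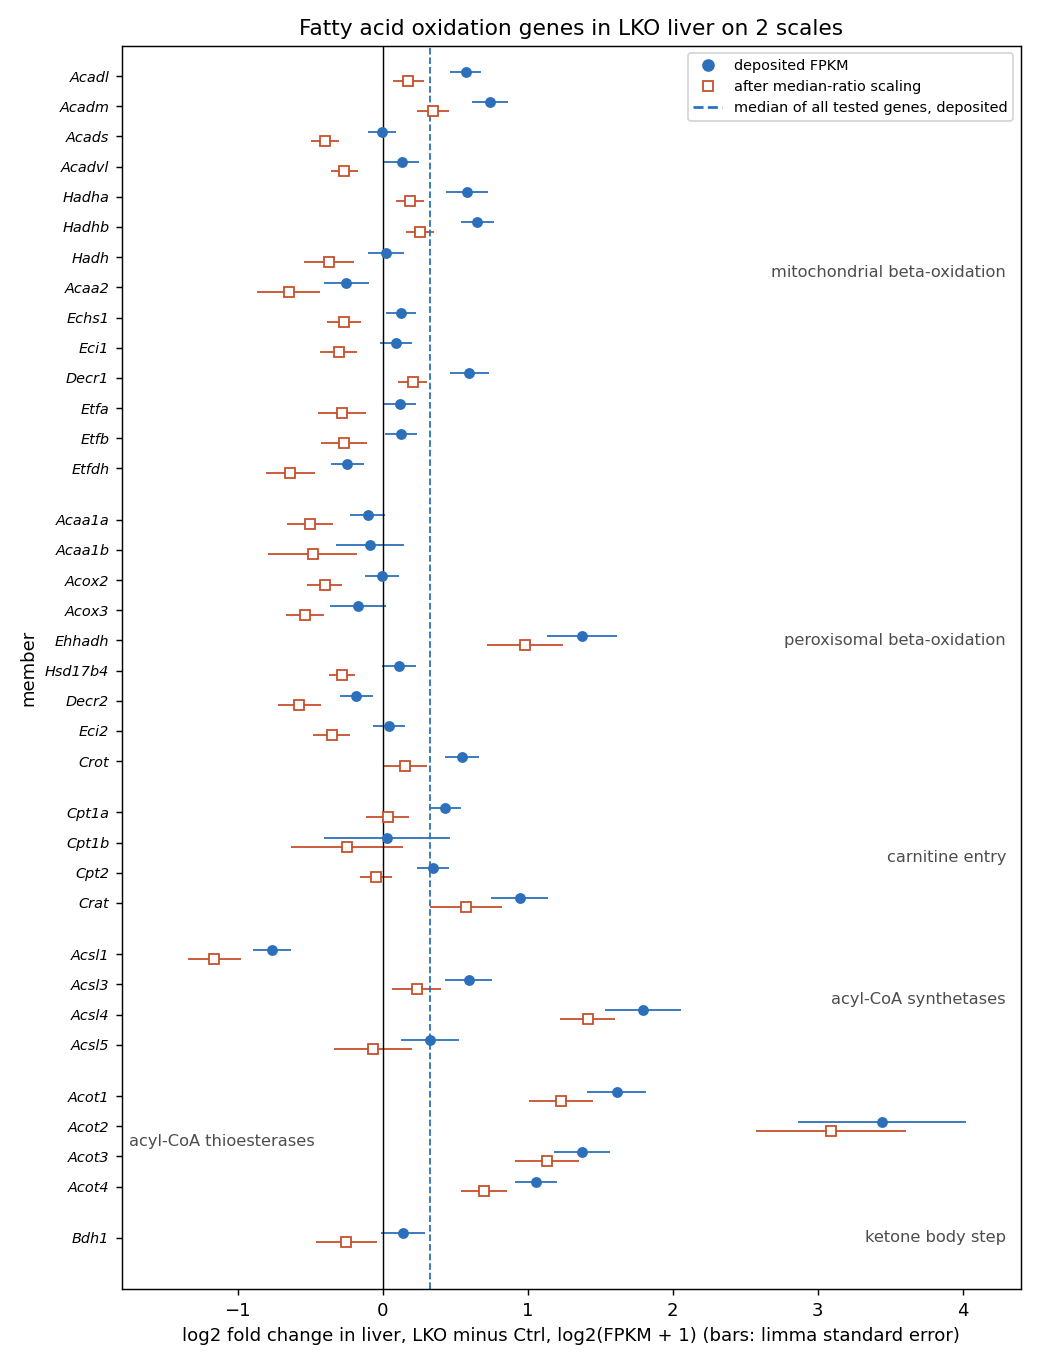
Log2 fold change of each member in liver (LKO minus Ctrl, log2(FPKM + 1)) on deposited FPKM (filled circles) and after median-ratio scaling (open squares), with bars of 1 limma standard error and the dashed line at 0.33, the median of all tested genes on deposited values. Thioesterases, Acsl4 and Ehhadh lie right of 0 and Acsl1 left of 0 on both scales, while 12 members lie on different sides of 0.

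Genes around the pathway are given against the 17% of all tested liver genes that were higher on both scales and the 5.48% that were lower on both. The carnitine uptake transporter Slc22a5 rose from 6.45, 5.48 and 5.50 FPKM in Ctrl to 9.34, 15.7 and 12.5 FPKM in LKO, with a difference of 0.96 (adjusted p = 0.00809), or 0.61 (adjusted p = 0.0229) after scaling. Bbox1, the last enzyme of carnitine synthesis, fell by 0.44 (adjusted p = 0.0266), and by 0.83 (adjusted p = 0.016) after scaling. They were the 2 called on both scales among 4 tested genes of carnitine supply. Of 6 genes of branched-chain and α-oxidation, all 6 had negative differences and 4 fell on both scales. Pecr, a peroxisomal enoyl-CoA reductase, stood at 145, 130 and 141 FPKM in Ctrl and at 83.5, 79.9 and 62.9 FPKM in LKO. Phyh, which starts α-oxidation of phytanic acid, stood at 1316, 1275 and 1287 FPKM in Ctrl and at 985, 897 and 835 FPKM in LKO. The groups of both genes were far apart, by -0.88 (adjusted p = 0.00404) and -0.52 (adjusted p = 0.0178), and by -1.27 (adjusted p = 0.00608) and -0.91 (adjusted p = 0.014) after scaling. Of 20 genes of peroxisome assembly and import 2 were higher and 0 lower on deposited values (38.3% and 5.49% of all genes), 0 were higher and 8 lower after scaling (17% and 15.2% of all genes), and 0 were called in 1 direction on both. Of 8 other acyl-CoA dehydrogenase genes, Acadsb and Gcdh, which act on amino acid products, fell on both scales, by 0.51 and 0.46 on deposited values. Of 5 genes of ketone body synthesis and use 1 rose on both scales, Oxct1, which serves ketone use. Of 5 genes of malonyl-CoA control, which sets CPT1 activity, 1 rose on both scales, Acaca (acetyl-CoA carboxylase), by 0.83 (adjusted p = 0.00698). A list of 7 regulators held the PPAR genes, 2 coactivators and the nuclear receptor genes Rxra and Esrra. Of these, Pparg and Ppargc1a rose on both scales, by 1.56 (adjusted p = 0.00814) and 0.71 (adjusted p = 0.0034) on deposited values. Of 12 tested PPARα target genes outside β-oxidation 7 rose on both scales and 1, Cyp4a12a, fell. Cd36, a fatty acid transporter, went from 7.10, 5.54 and 4.77 FPKM in Ctrl to 39.4, 66.1 and 84.3 FPKM in LKO. On deposited FPKM its LKO libraries stood in the same order as in Acot2, Acsl4 and the summed Kupffer cell and macrophage markers. The scaling factors had that order too, and the part of the marker cells was not tested. The Cd36 difference was 3.19 (adjusted p = 0.000741), or 2.82 (adjusted p = 0.000749) after scaling. Ppara itself differed by 0.09, and by -0.29 after scaling, without a call.

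In iWAT no member passed the adjusted threshold, and 0% of the 12288 tested genes did. With all 24 libraries in 1 fit 6 members passed (Acadl, Hadha, Hadhb, Etfdh and Acsl1 higher, Acsl3 lower), as did 645 of all genes. That fit takes a single variance per gene over all tissues, so its p-values do not measure the spread of the iWAT libraries alone. Of 33 members tested, 9 had an unadjusted p under 0.05, 7 higher and 2 lower, where 15% of all genes did, and 5 with ordinary variances, where 13.3% did. Acsl3 was the 1 member past the 1.5-fold criterion, which 3.25% of all genes met. It stood at 5.73, 5.31 and 5.13 FPKM in Ctrl and at 3.18, 2.87 and 2.43 FPKM in LKO. The groups did not overlap and each was tight, and the difference was -0.74 ± 0.10 (SE, adjusted p = 0.0884). Without LKO 1 it was called (adjusted p = 0.0467). LKO 1 was its LKO library nearest to Ctrl, so leaving it out had to widen the difference, and that call is no support. Part of Acsl3 overlaps Utp14b on the same strand, with 2.8% of its transcript windows shared. Acsl4 was lower too, at 5.80, 5.76 and 6.17 FPKM against 4.77, 4.78 and 4.52 FPKM, by -0.28 (adjusted p = 0.164). Acsl1 went the other way, from 549, 480 and 478 FPKM to 585, 786 and 687 FPKM, without overlap, by 0.44 (adjusted p = 0.221).

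All 14 mitochondrial genes had positive differences in iWAT, with a median of 0.26, but in all 14 the Ctrl 1 library was the highest of the Ctrl libraries. LKO 2 was the lowest of the LKO libraries in 10 of the 14. The 7 brown and beige adipocyte markers had their highest Ctrl sum in Ctrl 1, at 566 FPKM, and their lowest LKO sum in LKO 2, at 499 FPKM. Ctrl 1 and LKO 2 also held the most muscle transcripts of their groups, with 8 skeletal muscle markers summing to 667, 107 and 69.0 FPKM in the Ctrl libraries and to 115, 1050 and 43.3 FPKM in the LKO libraries. Macrophage and monocyte markers summed to 645, 1701 and 1054 FPKM in Ctrl and to 649, 703 and 861 FPKM in LKO, and epithelial markers to 6.05 and 9.25 FPKM in LKO 1 and LKO 2 and to 0.041 to 0.507 FPKM in the other libraries. Hepatocyte markers, mostly Alb, summed to 24.4, 13.8 and 13.6 FPKM in Ctrl and to 35.9, 52.6 and 54.7 FPKM in LKO. The 6 adipocyte markers overlapped in their sums, at 28344 to 32819 FPKM in Ctrl and 21209 to 29657 FPKM in LKO. Their mean log2(FPKM + 1) did not, at 10.69 to 10.86 in Ctrl and 10.51 to 10.62 in LKO. The part of these cells in the iWAT results was not tested. Acadm stood at 319, 244 and 225 FPKM in Ctrl and at 275, 249 and 272 FPKM in LKO, inside the Ctrl range, with a difference of 0.03. Acadvl stood at 232, 176 and 157 FPKM in Ctrl and at 216, 226 and 255 FPKM in LKO, with a difference of 0.32 (adjusted p = 0.398). All LKO values of Acadvl exceeded Ctrl 2 and Ctrl 3, while Ctrl 1 lay among them. Hadhb stood at 288, 213 and 186 FPKM in Ctrl and at 362, 283 and 318 FPKM in LKO, overlapping by a narrow margin, with a difference of 0.50 (adjusted p = 0.267). Ehhadh stood at 22.6, 27.3 and 21.2 FPKM in Ctrl and at 39.1, 28.1 and 34.6 FPKM in LKO, without overlap, with a difference of 0.50 (adjusted p = 0.203). Without Ctrl 1 and LKO 2, the libraries with the most muscle transcripts, the 1.5-fold criterion was met by 8 members in place of 1, with Acadl, Hadha, Hadhb, Acaa2, Etfdh, Ehhadh and Cpt1b higher and Acsl3 lower, and by 562 in place of 399 of all tested genes. Since these were also the highest Ctrl and mostly the lowest LKO libraries of the mitochondrial genes, leaving them out had to raise those differences, and the count of 8 is no support for them. Without Ctrl 1 alone the count was 4, and without Ctrl 2 or LKO 2 alone it was 3.

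Cpt1b varied widely in iWAT, at 14.2, 7.25 and 1.73 FPKM in Ctrl and at 18.4, 10.1 and 23.4 FPKM in LKO. The groups overlapped, and the difference was 1.32 ± 0.62 (SE, adjusted p = 0.388). Ucp1, the uncoupling protein of brown and beige fat, stood at 81.6, 31.4 and 4.50 FPKM in Ctrl and at 106, 41.1 and 211 FPKM in LKO, in the same order of libraries within each group as Cpt1b. The brown and beige adipocyte markers together summed to 174 to 566 FPKM in Ctrl and to 499 to 843 FPKM in LKO. Cpt1a stood at 9.03, 19.0 and 14.7 FPKM in Ctrl and at 20.9, 17.6 and 21.5 FPKM in LKO. Its groups overlapped, with a difference of 0.51 ± 0.24 (SE, adjusted p = 0.39).

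In GM again no member passed the adjusted threshold, which 0% of the 10877 tested genes passed. Of 33 members tested, 7 had an unadjusted p under 0.05, 6 higher and 1 lower, against 6.83% of all genes, and 5 with ordinary variances, against 6.16%. The 1.5-fold criterion was met by 3 members, Cpt1a, Acot1 and Acot2, all higher, where 0.901% of all genes met it. Cpt1a stood at 1.94, 2.66 and 2.32 FPKM in Ctrl and at 4.04, 4.02 and 4.53 FPKM in LKO. The groups were well apart, by 0.66 ± 0.11 (SE, adjusted p = 0.341). Acot2 stood at 5.34, 5.52 and 5.0 FPKM in Ctrl and at 7.91, 14.0 and 11.5 FPKM in LKO. Its LKO libraries were all above Ctrl and spread more, with a difference of 0.92 ± 0.18 (SE, adjusted p = 0.379). Without LKO 1 it was called at 1.13 (adjusted p = 0.0268). LKO 1 was its LKO library nearest to Ctrl, so leaving it out had to raise the difference, and that call is no support. Acot1 stood at 1.79, 2.003 and 1.51 FPKM in Ctrl and at 2.63, 4.301 and 3.81 FPKM in LKO. It followed the same order of LKO libraries as Acot2, with a difference of 0.71 ± 0.15 (SE, adjusted p = 0.443). Without Ctrl 1 the 1.5-fold criterion was met by Acot1 and Acot2 and missed by Cpt1a.

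The muscle form Cpt1b gave no such difference in GM, at 117, 120 and 127 FPKM in Ctrl and 114, 121 and 125 FPKM in LKO, with a difference of -0.01 that became 0.02 after scaling. Cpt1a made up 1.86% ± 0.275 (SD, n = 3) of the summed Cpt1a and Cpt1b FPKM in Ctrl and 3.37% ± 0.144 in LKO muscle. Acadm stood at 155, 165 and 137 FPKM in Ctrl and at 161, 159 and 164 FPKM in LKO, and Acadvl at 158, 166 and 169 FPKM and 153, 161 and 151 FPKM. The groups overlapped in both, with differences of 0.09 and -0.08. Acadl and Hadha differed by 0.18 and 0.16 with adjusted p of 0.724 and 0.708, and the peroxisomal Crot by -0.24 (adjusted p = 0.594). Markers of other cells were uneven between the GM libraries. The 6 adipocyte markers summed to 264, 423 and 74.7 FPKM in the Ctrl libraries and to 440, 61.9 and 102 FPKM in the LKO libraries. LKO 1, the lowest LKO library in Acot1, Acot2 and Ucp3, also held the most lymphocyte and macrophage marker transcripts, with sums of 24.6 against 0.087 and 0.050 FPKM and of 83.2 against 40.1 and 35.1 FPKM in LKO 2 and LKO 3. Hepatocyte markers summed to 239, 19.9 and 182 FPKM in Ctrl and to 91.4, 12.7 and 36.5 FPKM in LKO. The 7 slow and oxidative fibre markers summed to 3855, 3382 and 3242 FPKM in Ctrl and to 3938, 3619 and 4203 FPKM in LKO. The part of these cells and fibres in the GM results was not tested. Of 8 tested PPARα target genes outside β-oxidation, 5 met the 1.5-fold criterion in GM, where 0.901% of all genes did. All 5 were higher and none passed the adjusted threshold. Over the list 7 differences were positive and 1 was negative, at -1.35. Ucp3, a muscle uncoupling protein homologue, stood at 22.7, 49.97 and 45.2 FPKM in Ctrl and at 73.9, 146 and 114 FPKM in LKO, and its LKO libraries kept the order seen in Acot1 and Acot2. Plin5, a lipid droplet protein of oxidative tissue, stood at 13.1, 16.0 and 13.6 FPKM against 21.8, 23.3 and 21.6 FPKM, a difference of 0.61 (adjusted p = 0.327).

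In hypothalamus no member met either criterion, where 0.0217% of 13828 tested genes passed the adjusted threshold and 0.333% met the 1.5-fold criterion. At an unadjusted p under 0.05 there was 1 of 33 members, Acox3, at a difference of -0.20 (adjusted p = 0.999), where 3.72% of all genes had one, and none with ordinary variances. Cpt1a stood at 9.50, 8.36 and 8.58 FPKM in Ctrl and at 9.20, 8.80 and 8.44 FPKM in LKO. The libraries of both genotypes lay in the same range. Acadm and Acadvl differed by -0.13 and -0.08, and Cpt1b by -0.17, with overlapping groups. Acsl4 was uneven, at 13.3, 11.03 and 9.55 FPKM in Ctrl and 4.01, 12.4 and 11.2 FPKM in LKO, where LKO 1 alone stood low.

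**Figure D4:**
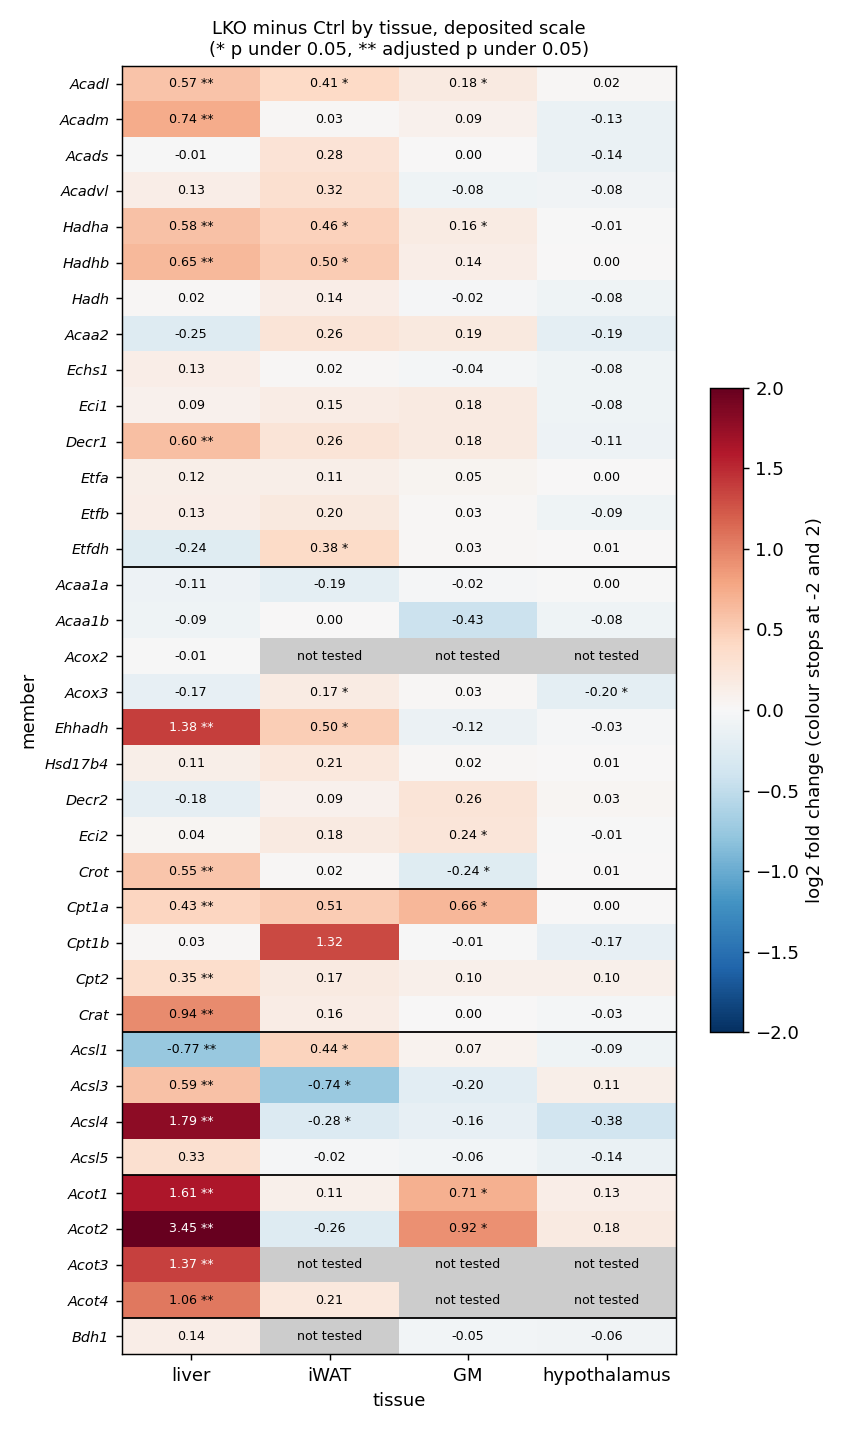
Log2 fold change (LKO minus Ctrl, deposited FPKM) of each member in the 4 tissues, with the colour stopping at -2 and 2, 1 asterisk for an unadjusted p under 0.05, 2 for an adjusted p under 0.05 and grey for members below the filter. Double asterisks appear in the liver column for 17 members and in no other column.

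The effect of LKO on a gene was also compared between tissues, in a fit over all 24 libraries with a tissue-by-genotype term. That fit took all libraries as independent, since the labels do not say which tissues came from the same mouse. The effect differed between the 4 tissues for 16 of the 36 members, where 33.5% of 15849 genes did. After scaling it differed for 13, where 22.4% did. On both scales it differed for 8 members, Acot1, Acot2, Acot3, Acsl1, Acsl3, Acsl4, Ehhadh and Etfdh, where 16.8% of all genes did. Acot3 was under the filter in iWAT, GM and hypothalamus and entered this test only through LKO liver, where it is high, so its difference between tissues is no support. For Acot2 the iWAT difference was -3.71 and the GM difference -2.53 relative to the liver difference (adjusted p = 0.000183, and 0.000265 after scaling). For Acsl1 the iWAT difference was 1.21 above that of liver (adjusted p = 0.000102, and 2.45e-05 after scaling), and for Acsl3 it was -1.34 relative to liver (adjusted p = 0.000469, and 0.00514 after scaling). For Cpt1a no difference between tissues was found at the threshold (adjusted p = 0.117, and 0.0804 after scaling). Crat and Crot differed between tissues on deposited values and not after scaling (adjusted p = 0.166 and 0.331).

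**Figure D5:**
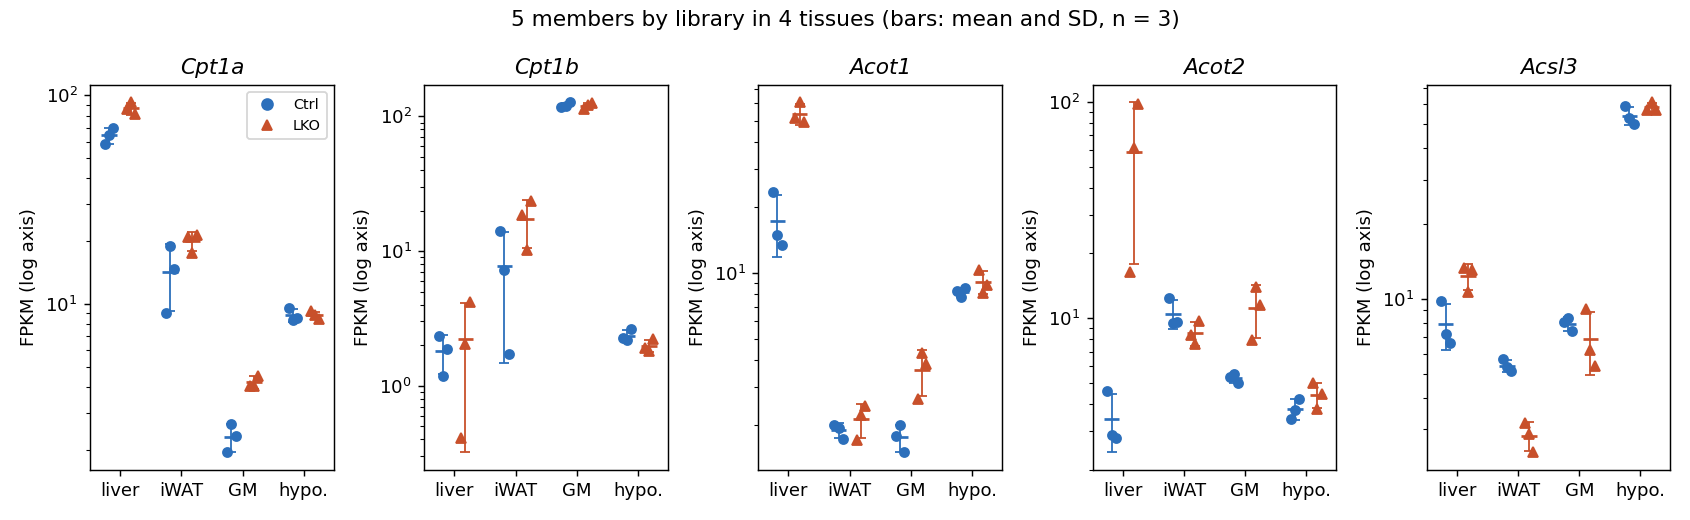
FPKM on log axes of Cpt1a, Cpt1b, Acot1, Acot2 and Acsl3 in the 3 Ctrl (circles) and 3 LKO (triangles) libraries of each tissue, with bars at the mean and of 1 SD. In GM the LKO libraries stand above Ctrl for Cpt1a (4.02 to 4.53 against 1.94 to 2.66 FPKM), Acot1 and Acot2, and in iWAT they stand below Ctrl for Acsl3 (2.43 to 3.18 against 5.13 to 5.73 FPKM).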

How the data were processed

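RNA was sequenced from 4 tissues of LKO and Ctrl mice (24 libraries, TruSeq RNA Library Prep Kit v2, which does not mark strand, 100-base paired ends). The submitters' processing notes name Trimmomatic 0.32, HISAT2 2.0.5, Bowtie2 2.2.6, STAR 2.5.2b and StringTie 1.3.3b and the mm10 build. The authors deposited FPKM for each gene and library, and per library also TPM and the mean coverage of each gene's transcripts, which served as an unscaled signal to infer depth. No read counts were used, so counting error could not be given. Within each tissue, log2(FPKM + 1) was fitted with limma 3.58.1 (R 4.3.3, moderated variances with a trend) for genes that reached 1 FPKM in 3 or more of its 6 libraries. Two-sided p-values were adjusted by Benjamini-Hochberg over all tested genes. An exact permutation test of 3 against 3 libraries cannot go below p = 0.1, so none is given. The 36 members, the pathway lists and the cell type marker lists were chosen with earlier results of these data known. Values were given in full for members past the adjusted threshold and 1.5-fold in liver on either scale, past 1.5-fold with an unadjusted p under 0.05 elsewhere, for Cpt1a, Cpt1b, Acadm and Acadvl, and for Gadd45gip1. Genes named beside these were chosen after their values were seen. Alternatives were median-ratio scaling, quantile normalization, TPM, a pseudocount of 0.1, no filter, ordinary variances, a replicate block, a fit over all tissues and leaving out each library. Promoter sequences and coordinates came from RefSeq on GRCm38.p6, and shared transcript windows from the annotation's transcripts.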

Additional observations from a re-analysis of the deposited data

Results flagged for a closer look

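For 16 members the effect of LKO differed between the 4 tissues by the test of the tissue-by-genotype term on deposited FPKM. The test was limma over 24 libraries, taken as independent, and adjusted over 15849 genes, of which 33.5% passed. Among the thioesterases the adjusted p was 1.05e-05 for Acot3, 0.000183 for Acot2, 0.000218 for Acot1 and 0.00139 for Acot4. Acot3 entered the test only through LKO liver, where it is high, and was under 1 FPKM in every library of the other tissues, so its p is no support. Among the synthetases it was 0.000102 for Acsl1, 0.000469 for Acsl3 and 0.000612 for Acsl4. Among the peroxisomal and carnitine genes it was 0.000468 for Crot, 0.00198 for Ehhadh and 0.00107 for Crat. Among the mitochondrial genes it was 0.00169 for Acadm, 0.0219 for Decr1, 0.023 for Hadhb, 0.0259 for Etfdh, 0.0324 for Acadl and 0.0367 for Hadha. After median-ratio scaling 8 of these 16 passed (Acot1, Acot2, Acot3, Acsl1, Acsl3, Acsl4, Ehhadh and Etfdh), as 16.8% of all genes did on both scales, and Acot4 did not (adjusted p = 0.059).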

How the results depend on the processing

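The liver count of 17 members fell to 10 with ordinary variances, and that of all tested genes from 4794 to 2319. The iWAT count at the adjusted threshold went from 0 to 6 with all 24 libraries in 1 fit (Acadl, Hadha, Hadhb, Etfdh and Acsl1 higher, Acsl3 lower), that of all tested genes from 0 to 645, and the iWAT count at 1.5-fold went from 1 to 2 in that fit and to 8 without Ctrl 1 and LKO 2, an alternative chosen after seeing the data (all tested genes from 399 to 458 and 562). Median-ratio scaling turned the liver difference of Acadvl to -0.27, that of Cpt1b to -0.25 (-0.47 with quantile normalization, -0.14 with a pseudocount of 0.1) and the GM difference of Cpt1b to 0.016 (0.018 with quantile normalization). With a library left out, the liver count ran from 11 to 19 on deposited values and from 5 to 24 after scaling (24 without LKO 1), beside 1915 to 7552 and 1531 to 5593 of all tested genes, the iWAT counts from 0 to 1 and from 1 to 4, and the GM counts from 0 to 1 and from 2 to 4. The difference then ran from -0.41 to 0.53 for Cpt1b in liver, from -0.072 to 0.18 for Acadm in iWAT, from -0.044 to 0.024 for Cpt1b in GM and from -0.033 to 0.050 for Cpt1a in hypothalamus. With scaling and a liver library left out together, also added after seeing the data, Cpt1a turned negative without Ctrl 1 (-0.049), LKO 1 (-0.061) or LKO 2 (-0.0076), Cpt1b without Ctrl 1 (-0.11), Ctrl 2 (-0.42), Ctrl 3 (-0.21), LKO 2 (-0.31) or LKO 3 (-0.61), and Acadvl without any of the 6, at -0.25, -0.26 and -0.29 without Ctrl 1, 2 and 3 and at -0.27, -0.30 and -0.23 without LKO 1, 2 and 3. Whether the replicate numbers pair the libraries is not known. Correlations of same-numbered deviations ran from -0.13 to 0.35, the highest for replicate 1 in GM (0.35) and iWAT (0.30). With 3 libraries per group they cannot exclude a pairing. With a replicate block the liver count was 15, losing Cpt1a and Cpt2, and counts at 1.5-fold stayed at 12, 1, 3 and 0 in liver, iWAT, GM and hypothalamus. The causes of these shifts were not tested. The fit over all 24 libraries took a single variance per gene, so its iWAT p-values do not measure the iWAT spread alone. Read counts were not used here, so depth limits on low genes such as Acot3 are unknown.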
